A study of Mus musculus with 12 samples.

Results

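Where Nfib was found along the chromosomes of the mouse small cell lung cancer line KP22 is described here from the 9893 peaks of its pulldown on chromosomes 1 to 19. Members were all intervals on the autosomes in the deposited list of 10120 KP22 peaks (mm9 coordinates). The remaining intervals were 213 on chromosome X and 14 on unplaced or random sequence, and none lay on chromosome Y. The deposited KP22 and KP1 lists together held 35025 peaks.

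The study immunoprecipitated Nfib from 3 tumor-derived lines, 16T, KP1 and KP22, all of genotype Trp53-/-;Rb1-/-, and sequenced 12 libraries. KP22 is classed in the labels as Nfib low and the other lines as Nfib high. KP22 had 2 input libraries (sheared chromatin without immunoprecipitation) and 2 Nfib pulldown libraries made with a Sigma antibody. The lines grow as floating spheres, and KP22 stands for the low class as a single line. The pulldown replicates share 1 list, so no value below has an error between replicates and no test over samples was possible. Reads per library are not given in the sources used here, so the depth behind a peak is unknown. The list carries positions and no score, gene or sequence, and the identity of the line was therefore taken from the labels and not checked against markers.

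Nfib belongs to the nuclear factor I family of transcription factors, which bind DNA as dimers at a short palindromic site and are known for roles in lung and brain development. The Nfib gene is amplified in some mouse and human small cell lung cancers, a neuroendocrine tumour in which loss of Trp53 and Rb1 is typical. A peak in such data is a stretch where pulldown reads pile up over the input. Neighbouring peaks may mark separate binding sites of 1 regulatory region, and wide peaks may cover several sites that the fragments do not resolve.

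The first question was how far apart the KP22 peaks lay. Neighbouring peaks were separated by a median of 100.2 kb (95% interval 96.0 to 105.1 over 9874 gaps), measured from the end of one peak to the start of the next. The mean gap was longer, at 242.9 kb, since a small number of long gaps took up much of the genome. The middle of the distribution was wide, with quartiles of 30.8 and 260.0 kb. The 10% shortest gaps ended at 6.95 kb and the 10% longest began at 593.9 kb. The coefficient of variation of the gaps was 1.85, whereas independent placement at 1 constant rate would give 1. Intervals here and below are exact binomial ones for shares and distribution-free ones for medians. They take each peak as independent of the others and cover only counting error.

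**Figure D1:**
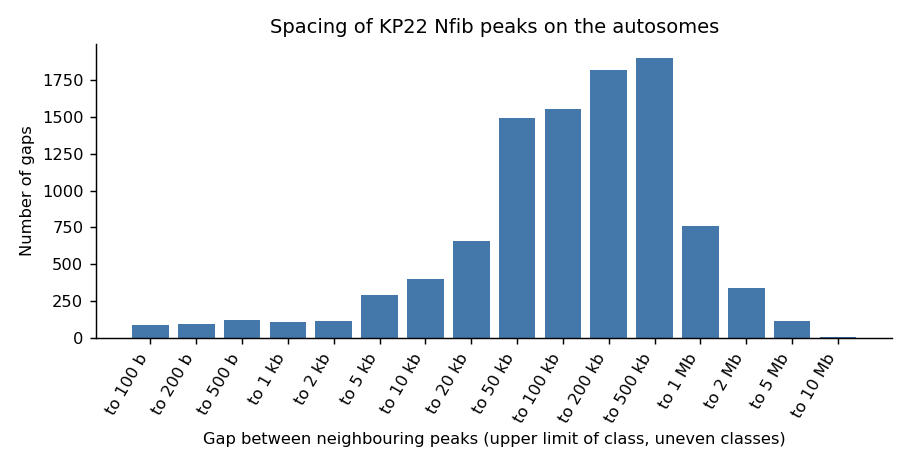
Number of gaps (vertical axis) between neighbouring autosomal KP22 peaks in classes of gap length (horizontal axis, uneven classes, each named by its upper limit). The tallest class, above 200 and up to 500 kb, holds 1899 gaps, and classes below 1 kb hold 417 gaps in all.

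The spacing had a tail of short gaps. No peaks overlapped, and the smallest gap was 49 bases, as in the KP1 list. Whether peak calling sets this limit was not tested. Of the 9874 gaps, 86 were at most 100 bases long and 185 (1.87%, 1.62 to 2.16) were at most 200 bases. A further 121 gaps lay above 200 and up to 500 bases, and 111 lay above 500 bases and up to 1 kb. The classes up to 100, 100 to 200, 200 to 500 and 500 to 1000 bases thus held similar numbers although the last spans far more bases than the first. The 185 closest gaps lay between 369 peaks on all 19 autosomes. Of these peaks, 60 lay on chromosome 4, which held 8.68% of all autosomal peaks. The median distance from the outer edge of one such peak to the outer edge of its partner was 592 bases, and the peaks themselves had a median width of 225 bases. Joining all peaks less than 1 kb apart would turn the 9893 peaks into 9476.

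At the other end of the distribution were long stretches without a peak. Gaps above 1 Mb numbered 465, which was 4.71% of the gaps, and held 34.8% of the length between peaks. Gaps above 2 Mb numbered 123, and 8 gaps exceeded 5 Mb. The longest lay on chromosome 15 from 8230180 to 16546499 and measured 8.32 Mb. It was followed by 7.54 Mb on chromosome 14 from 82509560 to 90051122 and by 7.42 Mb on chromosome 7 from 39039734 to 46460525. A gap of 6.74 Mb lay on chromosome 17 from 57467366 to 64210428. The other 6 of the 10 longest ran from 4.65 to 6.42 Mb, and chromosome 14 held 3 of the 10. Repeats and mappability, which limit where reads can be placed, were not analysed here.

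The second question was whether peaks gathered into clusters. Most KP22 peaks stood alone: 7649 peaks (77.3%) had no other peak within 10 kb, and 2244 (22.7%, 21.9 to 23.5) had at least 1. At 1 kb the share with a neighbour was 8.21%, at 50 kb it was 53.8% and at 100 kb it was 70.7%. Only 95 peaks (0.960%) had no other peak within 1 Mb. The shares that independent placement at 1 rate would give were not computed, so these shares alone do not measure how strong clustering was. Without chromosome 4 the share with a neighbour within 10 kb was 21.4%, and with peaks under 1 kb apart counted as 1 it was 15.9%. Part of the clustering at 10 kb was therefore made of close pairs that count as 1 region when joined.

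Chaining peaks by gaps of at most 10 kb gave 1017 clusters, most of them pairs. Pairs numbered 861, triplets 124 and groups of 4 peaks 21. Only 11 clusters held 5 or more peaks, 66 peaks in all, and 5 of the 11 lay on chromosome 4. Clusters of 3 or more peaks, 156 in number, occurred on all 19 autosomes, 33 of them on chromosome 4. For scale, chromosome 4 held 8.68% of all autosomal peaks.

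The largest cluster held 9 peaks on chromosome 4 from 137526915 to 137540438, a span of 13.5 kb of which 16.0% was covered by peaks. None of its peaks was wide, the widest having 304 bases. The second held 7 peaks on chromosome 1 from 36580426 to 36605421, with 3 of them packed between 36584793 and 36586019. Clusters of 6 peaks lay on chromosome 8 from 123059266 to 123072399, on chromosome 5 from 125614593 to 125645419 and on chromosome 4 from 148231856 to 148247158 and from 129655493 to 129686576. A further cluster of 6 lay at the start of the placed peaks of chromosome 9, from 3000243 to 3032644, and was followed by 2503890 bases without a peak.

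Clusters of 5 peaks differed in how tightly they were filled. On chromosome 17, 5 peaks from 39980047 to 39985660 covered 58.6% of 5.61 kb, with widths of 1062, 205, 1101, 623 and 297 bases. Elsewhere, 5 peaks on chromosome 2 from 91789142 to 91800237 covered 14.1% of their span, and 5 peaks on chromosome 4 from 122670220 to 122683369 covered 15.04%. The last cluster of 5, on chromosome 4 from 132514579 to 132535423, covered 5.76%. Peaks thus covered a larger part of the chromosome 17 block than of the other clusters of 5. The cluster from 122670220 also held wide peaks for this list, with a median of 413 bases and a widest peak of 528. Leaving out the 11 peaks of the chromosome 9 and chromosome 17 blocks left 22.6% of peaks with a neighbour within 10 kb. Repeats and mappability were not analysed at either block, so whether their peaks reflect Nfib binding was not tested.

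The third question was how evenly peaks filled the autosomes. In 2417 windows of 1 Mb, counted from the first to the last peak of each autosome, the mean was 4.09 peaks and the median 3. The variance was 4.22 times the mean, against 1 for independent placement at 1 rate, and it exceeded the mean on all 19 autosomes. Windows without a peak numbered 372 (15.4%). At the other end, 242 windows held 10 or more peaks, and this densest 10% of windows held 3232 peaks, 32.7% of all (31.7 to 33.6). The 455 fullest windows, 18.8% of them, held 50% of the peaks. Without chromosome 4 the densest 10% held 31.1% and the variance was 3.68 times the mean.

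**Figure D2:**
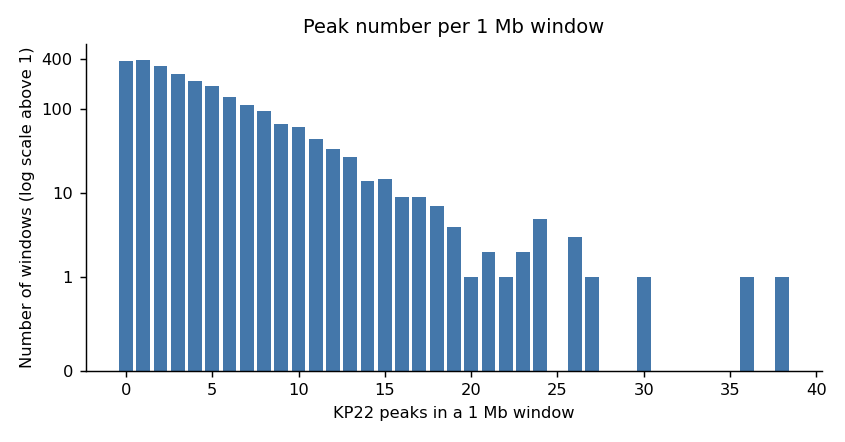
Number of 1 Mb windows (vertical axis, log scale above 1) by the number of KP22 peaks they hold (horizontal axis). The number of windows falls from 385 with 1 peak, and 12 windows reach 24 peaks or more, up to 38.

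Window counts were correlated over several megabases. Counts in adjacent windows correlated with r = 0.52 across 2398 pairs, and counts 2, 5 and 20 windows apart with r = 0.39, 0.23 and 0.11. These correlations describe neighbouring windows that share chromosome and library, and windows are not independent replicates. Pairs of all autosomes, chromosome 4 included, were pooled, so differences in density between autosomes also enter these values. Windows of 10 or more peaks formed 150 runs, of which 108 were a single window. The longest run covered 16 windows on chromosome 4 from 126 to 142 Mb, with 349 peaks and between 14 and 38 in each window. Next came 8 windows on chromosome 11 from 113 to 121 Mb with 133 peaks and 8 on chromosome 8 from 122 to 130 Mb with 104 peaks. On chromosome 17, 6 windows from 24 to 30 Mb held 84 peaks. Empty windows formed 248 runs, the longest being 7 windows on chromosome 14 from 83 to 90 Mb and 7 on chromosome 15 from 9 to 16 Mb.

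The densest windows were not alike inside. On chromosome 4, the window from 137 to 138 Mb held 38 peaks with a median gap of 7.66 kb and included the cluster of 9. Its neighbour from 136 to 137 Mb held 36 peaks with a median gap of 17.01 kb and no cluster above 3 peaks. On chromosome 11, the window from 117 to 118 Mb held 30 peaks with a median width of 218 bases, below the 228 bases of the whole list. By contrast, the 24 peaks on chromosome 4 from 122 to 123 Mb had a median width of 396.5 bases and covered 12.0 kb, more than the 7.38 kb covered by the 30 on chromosome 11. Outside chromosomes 4 and 11, windows of 24 or more peaks lay on chromosome 10 from 79 to 80 and from 80 to 81 Mb, with 24 and 26 peaks, and on chromosome 17 from 29 to 30 Mb, with 24.

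Summed over the autosomes, peaks were denser toward the distal ends, the ends with the higher coordinates. When each autosome was divided into 5 equal parts from its first to its last peak, the parts held, in order, 1542, 1569, 1762, 2113 and 2907 peaks. The first part thus had 15.6% of the peaks (14.9 to 16.3) and the last 29.4% (28.5 to 30.3), a ratio of 1.89. The median gap shortened along with this, from 127.3 kb in the first part to 72.3 kb in the last. The share of peaks with a neighbour within 10 kb was 18.9% (16.9 to 20.9) in the first and 27.8% (26.2 to 29.5) in the last. A share at a fixed distance rises with peak density by construction, and clustering beyond density was not tested. Without chromosome 4 the ratio of last to first was 1.67.

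**Figure D3:**
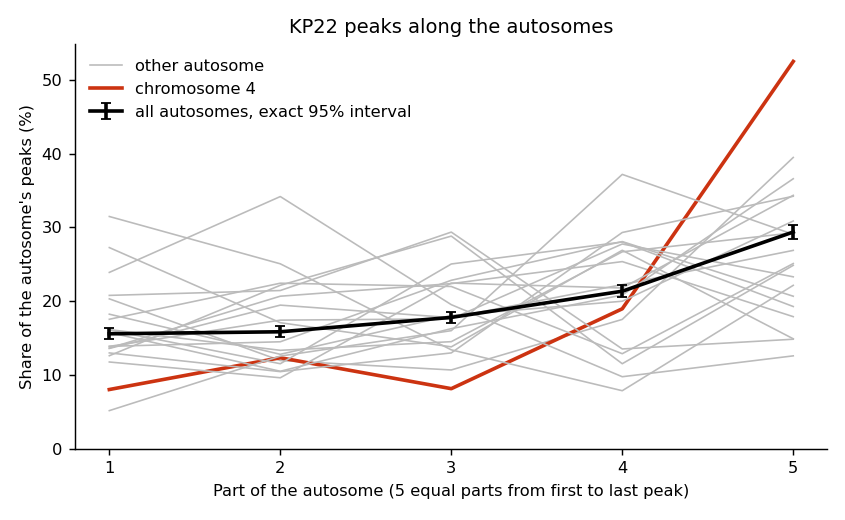
Share of an autosome's KP22 peaks (vertical axis, %) in each of 5 equal parts of the autosome from its first to its last peak (horizontal axis). Grey lines are single autosomes, the red line is chromosome 4 and the black line with exact 95% intervals is the sum over autosomes, rising from 15.6% to 29.4%.

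The gradient was not shared by every autosome. The last of the 5 parts held more peaks than the first on 15 of 19 autosomes, but was not the fullest part on each of these. On chromosomes 3, 6, 10, 15 and 18 the fourth part held the most peaks, as with 141 against 97 in the last on chromosome 10. On chromosome 9 the third part did, with 160 against 138 in the last. The ratio was highest on chromosome 4, with 451 against 69 peaks (6.54), and on chromosome 15, with 118 against 21 (5.62). It was 2.92 on chromosome 11 and 2.63 on chromosome 5. On chromosomes 14, 16, 17 and 19 the order was turned, with ratios of 0.714, 0.704, 0.527 and 0.547. Chromosome 4 placed 52.5% of its 859 peaks in its last part.

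Among autosomes, density differed by more than 2-fold. Chromosome 11 was the fullest with 6.34 peaks per Mb between its first and last peak, followed by chromosome 4 with 5.66, chromosome 2 with 4.82 and chromosome 19 with 4.76. The emptiest were chromosome 14 with 2.49, chromosome 3 with 3.01 and chromosome 1 with 3.35. The median autosome had 4.004. Chromosome 11 had a median of 5 peaks per window and 29 windows of 10 or more, the most of any autosome. Its variance was 4.45 times the mean per window. Chromosome 4 had a median of only 3 peaks per window, yet 25 windows of 10 or more.

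Spacing within an autosome did not follow its density alone. The median gap was shortest on chromosome 4, at 54.7 kb (46.0 to 61.3), and longest on chromosome 14, at 166.1 kb (144.0 to 206.2). Chromosome 11 came second with 70.5 kb (61.8 to 84.0), although its density was higher than that of chromosome 4. Chromosome 19 combined a high density with a median gap of 124.6 kb (97.6 to 143.0), a low coefficient of variation of 1.28 and 2 empty windows of 59. It was the most evenly filled autosome by that coefficient. Chromosome 4 was the least even, with a coefficient of 2.37 and a variance 9.52 times the mean per window. The next highest ratio of variance to mean was 4.85 on chromosome 17, and the lowest was 1.93 on chromosome 13.

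The share of clustered peaks did not follow the unevenness of the gaps on every autosome. On chromosome 4, 312 of 859 peaks (36.3%, 33.1 to 39.6) had another within 10 kb. Chromosome 8 followed with 30.6% (26.9 to 34.6) and chromosome 11 with 28.6% (25.4 to 32.0). All of these were denser than the median autosome, and such shares rise with density by construction. The lowest share was 12.9% (9.93 to 16.3) on chromosome 13, where the densest window held 11 peaks. Chromosome 19, with the lowest coefficient of variation, had 25.8% (20.7 to 31.4), and chromosome 15, with a coefficient of 2.27, had 18.2% (14.6 to 22.3). Chromosome 13 had 3.91 peaks per Mb, close to the median autosome, so a middle density went with few clusters there.

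The fourth question was how peak number related to gene content. Gene positions in mm9 were not used here, so gene-rich and gene-poor stretches within a chromosome could not be separated. Gene numbers per autosome were taken from the RefSeq table of GRCm38.p6, which lists 20665 protein-coding genes on the autosomes. Autosomes with more protein-coding genes had more peaks, with Pearson r = 0.77 and Spearman rho = 0.85 over 19 autosomes. For all 47042 listed genes the values were 0.77 and 0.88. Peak number also followed the span of the autosome (r = 0.74, rho = 0.78), and gene number followed span too (r = 0.63, rho = 0.71). These correlations are descriptions over 19 points from 1 list, and a relation to gene number apart from length was not tested. Per Mb of span, protein-coding genes were most numerous on chromosomes 11 and 7, both at 13.6. These had 6.34 and 3.82 peaks per Mb, against 4.004 on the median autosome. The fewest genes per Mb were on chromosomes 12 and 18, at 5.80 and 5.82, with 3.65 and 3.69 peaks per Mb.

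**Figure D4:**
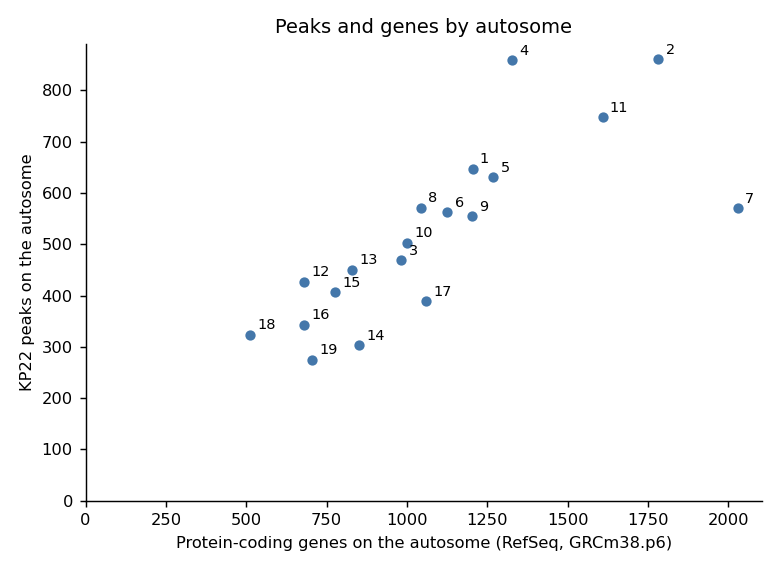
KP22 peaks per autosome (vertical axis) against protein-coding genes per autosome in the RefSeq table of GRCm38.p6 (horizontal axis), with 1 point per autosome, labelled by its number. Chromosome 7 lies low for its 2030 genes and chromosome 4 lies high for its 1328.

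Relative to genes, the order of autosomes changed. The autosomes together had 47.9 peaks per 100 protein-coding genes. Chromosome 4 was highest with 64.7, followed by chromosome 18 with 63.4 and chromosome 12 with 62.9. Those 2 chromosomes, with 511 and 679 protein-coding genes, were not dense by length, with 3.69 and 3.65 peaks per Mb. Chromosome 7 had the most protein-coding genes, 2030, but only 570 peaks, or 28.1 per 100 genes. Chromosomes 14, 17 and 19 had 35.6, 36.7 and 39.0. Chromosome 14 was thus low by both measures, and chromosome 11, first by peaks per Mb, was near the middle with 46.5 per 100 genes.

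The last question was how wide the peaks were and whether width went with density. The median width was 228 bases (225 to 230), with quartiles of 183 and 295 and a 99th percentile of 643. The distribution had a hard lower edge: 772 peaks (7.80%, 7.28 to 8.35) had exactly 159 bases, the smallest width, and the next most common width, 182 bases, had 93. All autosomal peaks together covered 2.54 Mb. The median width ranged from 218 bases on chromosome 14 to 239 on chromosome 2.

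Peaks in fuller windows were wider. The median was 217 bases (212 to 224) in windows of 1 to 2 peaks, 221 in windows of 3 to 5, 229 in windows of 6 to 9, 230 in windows of 10 to 14 and 246 (239 to 254) in windows of 15 or more. Without chromosome 4 the last value was 244 (235 to 253). Wide peaks, of at least 500 bases, made up 1.33% (0.732 to 2.23) of peaks in the emptiest of these classes and 7.95% (6.47 to 9.64) in the fullest. Much of that share came from chromosome 4, and without it the fullest class had 4.16% (2.84 to 5.85). Peaks of the smallest width made up 5.83% (4.57 to 7.32) of the fullest class and 8.77% (7.13 to 10.6) of the emptiest, with overlapping intervals, and without chromosome 4 these were 7.25% (5.49 to 9.35) and 8.52% (6.85 to 10.4).

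**Figure D5:**
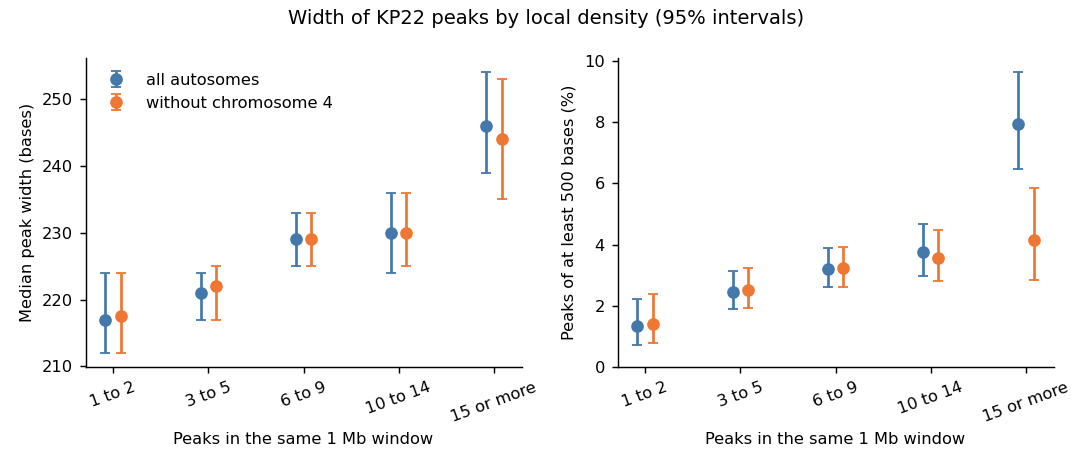
Median width in bases (left, axis not starting at 0) and share of peaks of at least 500 bases in % (right) by the number of KP22 peaks in the same 1 Mb window (horizontal axis), for all autosomes and without chromosome 4, with 95% intervals. Both measures are highest in windows of 15 or more peaks, and the share of wide peaks there is 7.95% with and 4.16% without chromosome 4.

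The 345 wide peaks lay closer to other peaks than the peaks of the smallest width did. Their nearest neighbour was at a median of 24.0 kb (17.7 to 32.9), against 53.1 kb (46.7 to 60.4) for the peaks of smallest width and 43.5 kb (41.8 to 45.0) for all. The share with a neighbour within 10 kb was 33.6% (28.7 to 38.9) for wide peaks and 19.8% (17.1 to 22.8) for the narrowest. Without chromosome 4, the wide peaks had a median nearest neighbour at 34.6 kb (24.3 to 47.0), and the narrowest at 54.6 kb (47.5 to 61.8). Of the wide peaks, 75 lay on chromosome 4, where they were 8.73% of peaks (6.93 to 10.8) against 2.99% (2.65 to 3.36) on the other autosomes. They were rarest on chromosome 18, with 3 of 324 peaks, and on chromosome 14, with 3 of 303.

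Wide peaks occurred on all 19 autosomes, and 270 of the 345 lay outside chromosome 4. The 1 Mb windows with the most of them were on chromosome 4. The window on chromosome 4 from 122 to 123 Mb had 10 wide peaks among 24, and the one from 127 to 128 Mb had 8 among 19. The widest peak of the list nevertheless stood alone. It spanned 2543 bases on chromosome 13 from 71157136 to 71159678, with its nearest neighbour 134.1 kb away. Another isolated wide peak, of 990 bases, lay on chromosome 9 from 72534088 to 72535077, with a neighbour at 57.4 kb. Of the 10 widest peaks, 6 lay on chromosome 4, and their nearest neighbours were 6.40 to 19.8 kb away. Local copy number was not measured here.

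Set beside the list of KP1, an Nfib-high line with 24616 autosomal peaks, the distribution along the autosomes had similar values. The ratio of peaks in the last to the first of 5 parts was 1.80 in KP1 and 1.89 in KP22, or 1.66 and 1.67 without chromosome 4. The coefficient of variation of the gaps was 2.34 in KP1 and 1.85 in KP22, and the median gap was 0.342 and 0.413 of the mean. In KP1, 46.1% of peaks had a neighbour within 10 kb, and its median gap was 33.3 kb. The KP1 list is longer, so shares at a fixed distance or in fixed windows cannot be compared, and an effect of list length on the spread of the gaps was not tested. Each line has 1 list, so these differences were not tested.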

How the data were processed

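Nfib pulldown and input chromatin of 3 lines was sequenced, and the KP22 list was analysed here, with the KP1 list beside it. The submitters' processing notes name Bowtie2, MACS2, DESeq2, DESeq and mm9, with no version, role or order. Not given in the sources used here are how replicates were combined, the threshold and the fragment length, each of which changes the number, width and joining of peaks. The deposited lists give the start and end of each peak in bases, with a blank score. Starts are printed counted from 1. The table of merged regions carries no positions and the 16T list no intervals, so neither was used.

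Widths, gaps, clusters and windows were computed with scipy 1.17.1, numpy 2.4.6 and pandas 2.3.3 under Python 3.11.15, and matplotlib 3.10.9 drew the plots. A peak was put in the window of its centre. Clusters were chained by gaps of at most 10 kb. The code was tested on simulated positions. Shares have Clopper-Pearson 95% intervals, and medians have binomial intervals of order statistics. No test was made, since the KP22 list is a single list. Named regions were the 10 densest windows with ties, the 10 largest clusters with ties, the 10 longest gaps and the 10 widest peaks. Members, lists and measures were chosen with earlier results of these data known. The 5 parts of each autosome, the width classes and the removal of the chromosome 9 and 17 blocks were chosen after seeing the data. Alternatives were other distances, windows, subsets of widths, joined peaks and removal of chromosome 4. Genes were counted per chromosome in the RefSeq table of GRCm38.p6, whose coordinates were not used.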

Additional observations from a re-analysis of the deposited data

How the results depend on the processing

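The median spacing of 100.2 kb became 108.5 kb without peaks of the smallest width, 194.0 kb with the 4947 peaks at or above the median width, 107.5 kb without chromosome 4 and 110.3 kb with peaks under 1 kb apart joined. The share of peaks with a neighbour within 10 kb, 22.7%, became 21.5%, 13.5%, 21.4% and 15.9% in the same order, and 15.7% at 5 kb and 53.8% at 50 kb. Fewer peaks and other distances change both by construction. The variance over the mean per window, 4.22, became 4.06, 3.03, 3.68 and 3.88 in the same order, 2.92 in windows of 500 kb, 11.6 in windows of 5 Mb and 3.47 in windows with a peak only. The densest 10% of windows, with 32.7% of peaks, had 37.2% with the wider peaks, 31.1% without chromosome 4, 37.0% at 500 kb, 26.2% at 5 Mb and 28.8% among windows with a peak. The median width of 228 bases became 236 without the smallest width and 295 among the wider peaks, by construction. Chromosome 4 held 8.68% of peaks and 9.34% of the wider ones. The ratio of peaks in the last to the first of 5 parts, 1.89, became 1.98 with the wider peaks, 1.67 without chromosome 4, 1.85 with peaks joined and 1.67 with 3 parts. The correlation of peaks with all genes, 0.77, was also 0.77 for protein-coding genes and 0.80 without chromosome 4. The other 9 alternative values stayed within the interval of the value reported.

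No paired analysis was possible because the list holds no value per library, and for the same reason leaving out a replicate was not run. With a blank score column, a stricter threshold was not run. Gene lists, genes per window and motifs were not run because no mm9 genome or annotation was used here.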

Other observations

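The cluster of 9 peaks on chromosome 4 from 137526915 to 137540438 was singled out after its values were seen, for the order of its gaps. From its start, the gaps between neighbouring peaks were 2211, 1088 and 169 bases, then 2159, 1132 and 189 bases, and then 2274 and 2138 bases. A long, a middle and a short gap thus followed one another in the same order at similar lengths, before a pair of long gaps ended the cluster. The peaks themselves measured 193, 304, 219, 253, 289, 244, 217, 193 and 252 bases. Those of 304 and 289 bases, the widest of the cluster, each lay between a long and a middle gap. The other widths showed no such order. Sequence at these positions was not used here, so whether the stretch is repeated in the genome was not tested.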
